A study of Mus musculus with 8 samples.

Results

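The collagen chains and core glycoproteins of the extracellular matrix were examined in the renal cortex of SPAK knockout mice, in which the kinase gene Stk39 was disrupted, and of their wild-type (WT) littermates. Members were the genes named Col, Lama, Lamb or Lamc with a chain number, Nid1 and Nid2, together with Fn1, Dcn, Lum, Bgn, Sparc and Hspg2, each read from a probe set that the array annotation gives to exactly 1 gene. This gave 62 of the 19938 genes on the array. The classes were 11 fibrillar collagens, 19 basement membrane genes, 9 fibril-associated collagens, 18 other collagens, and 5 interstitial glycoproteins and proteoglycans.

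All mice were C57Bl6J males aged 10 weeks. The 4 WT samples carry the genotype label of wild-type littermates and the 4 SPAK KO samples that of littermates with SPAK (Stk39) knocked out. Water was unrestricted, and the feed, equal in both genotypes, held 0.32% NaCl besides 1% KCl. Each array received labelled cDNA made from 6 µg of total RNA of dissected cortex. How the Stk39 allele was made, and whether any cells kept the kinase, is not given in the labels. The stated aim of the study was to find genes that act together against renal salt loss when SPAK is missing.

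Collagens are secreted proteins whose chains wind around each other in a helix. Fibrillar collagens build the cable-like fibrils of interstitial tissue, fibril-associated collagens sit on the surface of those fibrils, and type IV collagen forms the sheet of the basement membrane, where laminins, nidogens and perlecan join it. In the kidney every tubule and capillary rests on such a membrane, the filter of the glomerulus contains a specialised one, and excess interstitial collagen is the hallmark of fibrosis.

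Values are log2 expression values, so a difference of 1 is a doubling, and each difference is the mean of the 4 SPAK KO arrays less that of all 4 WT arrays, given with limma's moderated standard error (SE). A gene was called when its adjusted p was under 0.05 (limma, Benjamini-Hochberg adjustment over all 19938 genes). The labels number a mouse for every array, but the SPAK KO arrays resembled each other far more than most WT arrays did. Counting gaps of over 0.4 in 6297 bright genes (mean over 8), the 6 SPAK KO pairs had 1 to 10, the pair WT 2 and WT 3 had 3, and the other WT pairs had 119 to 228. WT 2 and WT 3 were therefore counted as 1 sample in the printed WT means and SD (n = 3), from which the differences can deviate, SPAK KO levels are given per array without SD, and the adjusted p-values measure a spread between arrays that may be technical. With arrays that agree counted once, 1 SPAK KO sample remains and limma called 0 genes at all (3 of the 62 members had an unadjusted p under 0.05). Stk39 itself read 8.36, 8.51, 8.6 and 8.11 across WT 1 to 4, against 7.21, 6.98, 6.79 and 7.1 across SPAK KO 1 to 4, and differed by −1.38 ± 0.11 (SE, 8 arrays; limma adjusted p = 5.8e-04). The 9 proximal tubule markers that stand for cortex had a mean log2 value of 12.51 to 12.54 on the WT and 12.56 to 12.58 on the SPAK KO arrays. Of these, 1 was called higher, the water channel Aqp1 (0.34 ± 0.06, limma adjusted p = 0.0164). The median over the 9 markers was 0.04, with 6 above 0 and 3 below. Slc5a2 lay below WT on every SPAK KO array without being called (−0.17 ± 0.07).

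RefSeq promoter entries (GRCm38.p6) matched 44 of the 62 members. The first 3 lines give the 150 bases before the annotated start of Col1a2 and Col3a1, the fibrillar chains with the smallest differences that have an entry, and of Col7a1, a non-fibrillar collagen lower on every SPAK KO array. In these 3 lines, capitals mark a motif searched on both strands, and the motifs do not overlap here. In Col1a2 it is CCAAT, 109 bases before the start. In Col3a1 it is TATAAA, 117 bases before the start, which is farther than a TATA box usually lies. In Col7a1 it is GGGCGG, 61 bases before the start. The last line gives the 22 bases between the starts of Col4a1 and Col4a2, the main type IV chains, which lie head to head on opposite strands, and whose annotated transcripts both cover this stretch. Motifs were not marked in that line, which holds GGGCGG in small letters.
Col1a2, chr6:4505468-4505617, plus strand: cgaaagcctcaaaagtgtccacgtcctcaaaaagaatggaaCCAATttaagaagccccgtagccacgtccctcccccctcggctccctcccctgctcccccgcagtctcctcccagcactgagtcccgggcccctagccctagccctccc
Col3a1, chr1:45311388-45311537, plus strand: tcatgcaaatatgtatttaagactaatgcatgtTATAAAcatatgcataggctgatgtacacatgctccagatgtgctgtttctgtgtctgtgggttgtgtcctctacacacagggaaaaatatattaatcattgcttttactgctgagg
Col7a1, chr9:108953436-108953585, plus strand: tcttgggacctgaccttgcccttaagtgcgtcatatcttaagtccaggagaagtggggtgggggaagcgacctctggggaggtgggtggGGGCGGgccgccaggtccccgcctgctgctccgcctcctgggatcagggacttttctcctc
Col4a1 and Col4a2 between their starts, chr8:11312805-11312826, plus strand: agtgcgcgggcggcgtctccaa

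In the 250 bases before the start, GGGCGG stood in 27 of 48 member windows (56.2%) and in 32.7% of all 32851 promoter windows. Fibrillar collagens held it in 6 of 8 windows and basement membrane genes in 7 of 13. CCAAT stood in 15 member windows (31.2%, against 33.8% of all) and TATAAA in 5 (10.4%, against 12.4%). TATAAA was in 2 of 8 fibrillar windows and in 0 of 13 basement membrane windows. These letters describe the windows and do not show that a factor binds there.

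Of the 62 matrix genes, Fn1 was the single one called, lower in SPAK KO, and 0 were called higher by limma. Over all genes 0.682% were called lower and 1.39% higher, or 2.08% in either direction, so the member count lies near the background. Differences were small throughout and ran from −0.28 to 0.29, with a median of −0.07 against −0.01 over all genes. They were below 0 for 49 members, where 54.2% of all genes were below 0. An unadjusted p under 0.05 was reached by 14 members in the lower and 1 in the higher direction (all genes 10.1% and 9%), 15 in all. This count was 8 without SPAK KO 4 and 8 with each array centred on its median. It was 18 with WT 2 and WT 3 averaged, 18 without WT 3 and 18 without WT 4. All 4 SPAK KO arrays lay below all 4 WT arrays for 11 members and above them for 1, where the shares over all genes were 5.71% and 6.9%. With each array centred on its median, which adds 0.0586 to the typical difference, the members' median became −0.01 and 32 were below 0.

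**Figure D1:**
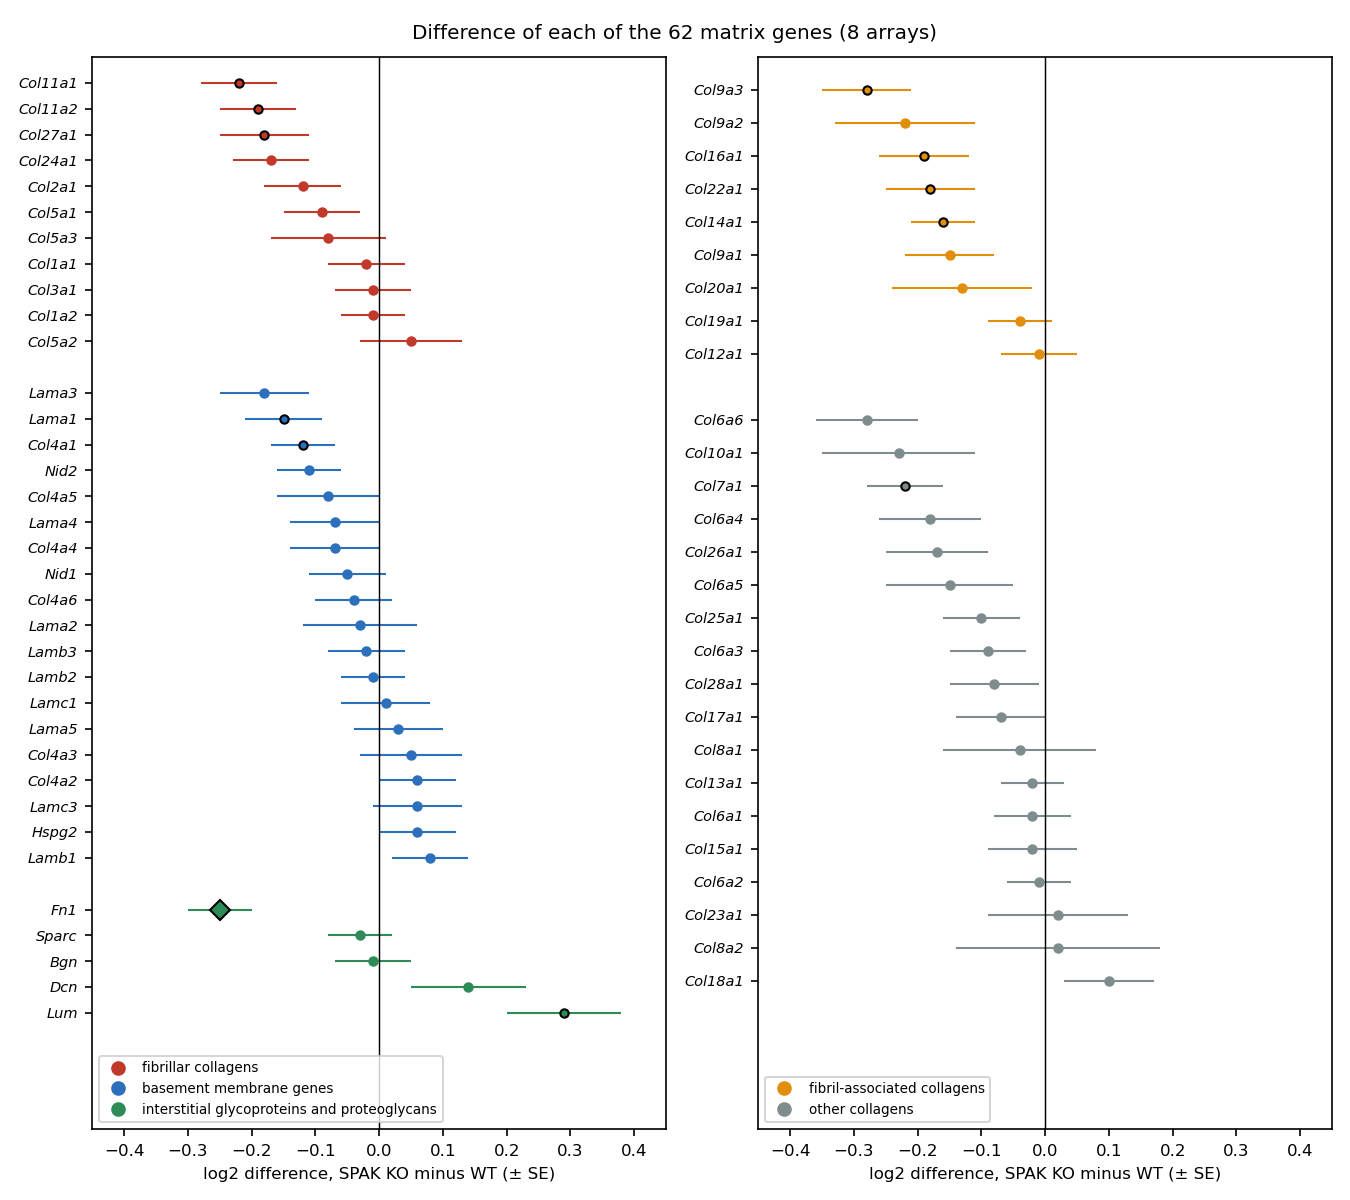
Log2 difference (SPAK KO minus WT, horizontal axis, with SE bars, 8 arrays) of the 62 matrix genes by class. The diamond marks Fn1, which was called, and black outlines mark genes whose WT and SPAK KO values do not overlap. The fibril-associated collagens all lie below 0, from −0.28 to −0.01, while basement membrane genes lie on both sides, from −0.18 to 0.08.

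Fibronectin, encoded by Fn1, is a large adhesive glycoprotein that integrins bind and along which collagen fibrils assemble. Fn1 read 8.73, 8.69, 8.73 and 8.69 across WT 1 to 4, against 8.54, 8.51, 8.37 and 8.44 across SPAK KO 1 to 4. Every SPAK KO value lay below every WT value, and the WT values were close together (8.71 ± 0.02, SD, n = 3). The difference was −0.25 ± 0.05 (SE, 8 arrays), a ratio of 0.844 (limma adjusted p = 0.0446). Refits without any single array all lost the call (8 of 8, adjusted p 0.0527 to 0.132), with WT 2 and WT 3 averaged (0.0909), and with arrays centred on their median (−0.19, adjusted p = 0.0993).

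**Figure D2:**
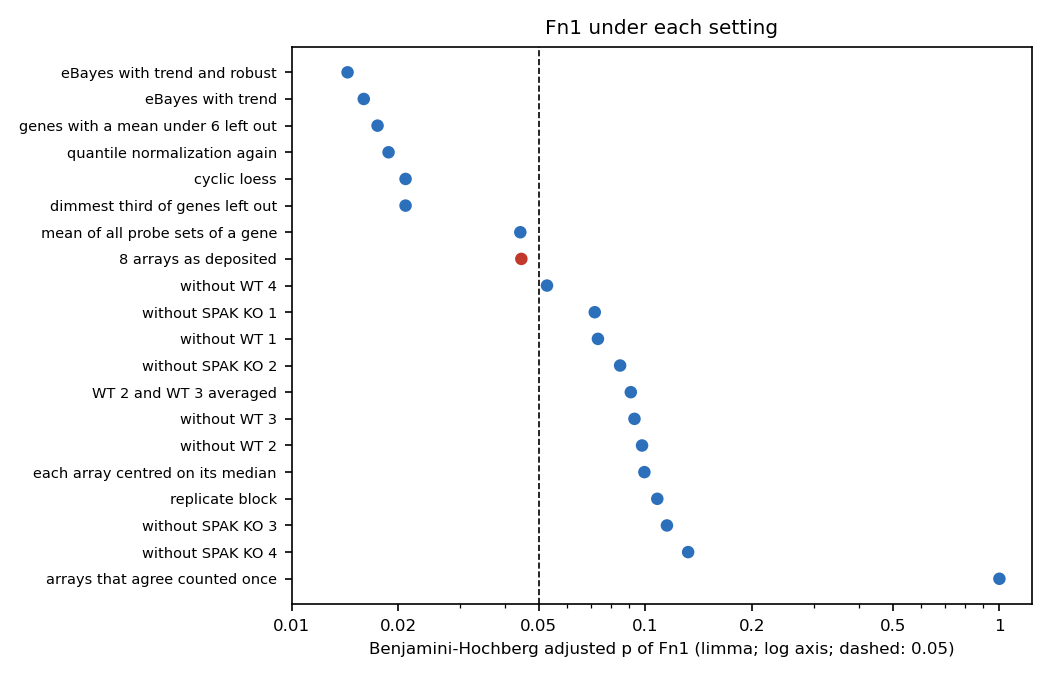
Adjusted p of Fn1 (limma, log axis, dashed line at 0.05) for the 8 arrays as deposited and under each other setting. The value is 0.0446 as deposited, lies between 0.0527 and 0.132 without any single array, and runs from 0.0144 with trend and robust options to 1 with arrays that agree counted once.

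The remaining interstitial members did not pass. Decorin and lumican, small leucine-rich proteoglycans that coat collagen fibrils and whose genes are neighbours on chromosome 10, had differences above 0. Dcn read 8.98, 9.10, 9.11 and 9.44 across WT 1 to 4, against 9.33, 9.23, 9.31 and 9.33 across SPAK KO 1 to 4. WT 4 lay above every SPAK KO array, so the groups overlapped (0.14 ± 0.09, adjusted p = 0.401). Lum, the dimmest of all members, read 3.60, 3.63, 3.56 and 3.73 against 4.17, 3.73, 3.82 and 3.95. The groups met at 3.73, with the SPAK KO value higher by less than the rounding, and the difference was 0.29 ± 0.09 (adjusted p = 0.129). Biglycan, the third proteoglycan of this family here, read 10.53 to 10.75 in WT and 10.57 to 10.60 in SPAK KO (Bgn, −0.01 ± 0.06). Sparc, encoding a collagen-binding matricellular protein also called osteonectin, read 11.30 to 11.46 and 11.30 to 11.35 (−0.03 ± 0.05). The sign of Bgn and Sparc turned with arrays centred on their median. Fibronectin thus stood apart from the other interstitial members in passing the test, but a difference between these genes was not tested.

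**Figure D3:**
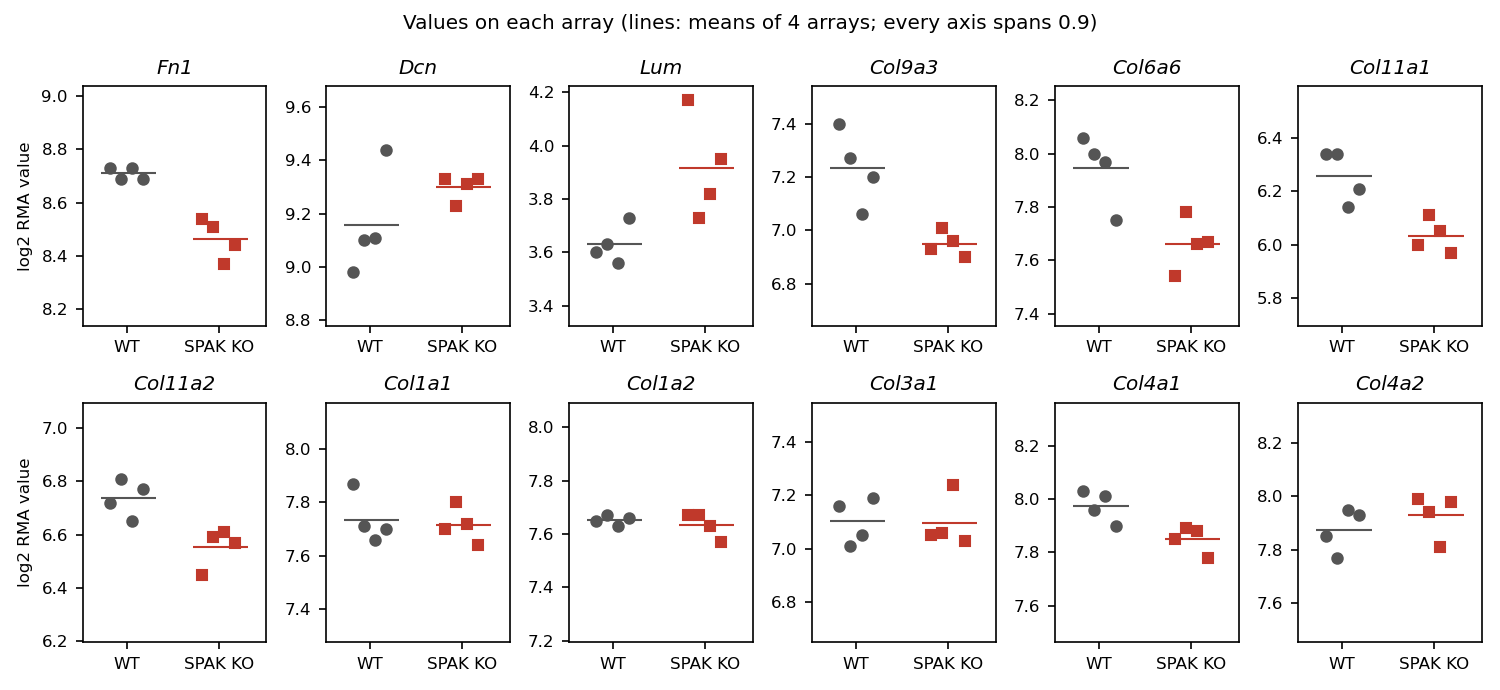
Log2 values of 12 matrix genes on each array, WT arrays 1 to 4 as grey circles and SPAK KO arrays 1 to 4 as red squares, with lines at the group means. Fn1, Col9a3, Col11a1, Col11a2 and Col4a1 show SPAK KO values wholly below WT, whereas Col1a1, Col1a2, Col3a1 and Col4a2 overlap.

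Among the 11 fibrillar collagens limma called 0 (4 had an unadjusted p under 0.05, all lower). Type I collagen, the main fibril of scar and interstitium, is built from the chains of Col1a1 and Col1a2. Col1a1 read 7.87, 7.71, 7.66 and 7.70 across WT 1 to 4, against 7.70, 7.80, 7.72 and 7.64 across SPAK KO 1 to 4 (−0.02 ± 0.06, adjusted p = 0.897). Its partner Col1a2 read 7.65, 7.67, 7.63 and 7.66 against 7.67, 7.67, 7.63 and 7.57 (−0.01 ± 0.05, adjusted p = 0.899). Both genes overlapped between genotypes, with SPAK KO 4 the lowest array, and Col1a2 varied by 0.01 (SD, n = 3) in WT. Col3a1, the type III chain found with type I in soft tissue, read 7.16, 7.01, 7.05 and 7.19 against 7.05, 7.06, 7.24 and 7.03 (−0.01 ± 0.06). With centred arrays these 3 genes gave 0.04, 0.05 and 0.05, so their sign is not settled. The type V chains, which set fibril diameter, gave −0.09 ± 0.06 (Col5a1), 0.05 ± 0.08 (Col5a2) and −0.08 ± 0.09 (Col5a3), again with overlapping groups.

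The fibrillar chains of types II, XI, XXIV and XXVII, known mainly from cartilage and developing bone, had larger differences. Col11a1 read 6.34, 6.34, 6.14 and 6.21 across WT 1 to 4, against 6.00, 6.11, 6.05 and 5.97 across SPAK KO 1 to 4 (−0.22 ± 0.06, adjusted p = 0.0996). Col11a2, its partner in type XI collagen, read 6.72, 6.81, 6.65 and 6.77 against 6.45, 6.59, 6.61 and 6.57 (−0.19 ± 0.06, adjusted p = 0.128). Neither passed, although every SPAK KO value lay below every WT value for both. Col27a1 also had no overlap, at 7.96, 7.68, 7.69 and 7.68 against 7.62, 7.61, 7.61 and 7.44 (−0.18 ± 0.07). Here WT 1 lay well above the other WT arrays and SPAK KO 4 lay below the other SPAK KO arrays. Col24a1 (−0.17 ± 0.06) and Col2a1 (−0.12 ± 0.06) overlapped. The median over these 5 chains was −0.18, and −0.02 over the 6 chains of types I, III and V. This division was made after the values were seen and was not tested. On arrays centred on their median the values were −0.12 and 0.04.

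Of 19 basement membrane genes, limma called 0 (3 had an unadjusted p under 0.05, all lower). Their median was −0.03, and 12 of 19 were below 0. All SPAK KO arrays lay below all WT arrays for Col4a1 and Lama1, and for no basement membrane gene above (5.71% of all genes lay below and 6.9% above).

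Type IV collagen occurs in every basement membrane as chains of Col4a1 and Col4a2, and in the mature glomerular membrane as chains of Col4a3, Col4a4 and Col4a5, the genes altered in Alport syndrome. Col4a1 read 8.03, 7.96, 8.01 and 7.90 across WT 1 to 4, against 7.85, 7.89, 7.88 and 7.78 across SPAK KO 1 to 4 (−0.12 ± 0.05, unadjusted p = 0.0338 by limma over 8 arrays, adjusted p = 0.222). Col4a2, its partner across the stretch printed above, read 7.85, 7.77, 7.95 and 7.93 against 7.99, 7.94, 7.81 and 7.98 (0.06 ± 0.06, adjusted p = 0.634). Col4a1 minus Col4a2, on the log2 scale within each array, was −0.02 to 0.19 in WT and −0.21 to 0.06 in SPAK KO, so the ranges overlapped. The partners in this head-to-head pair thus had differences of opposite sign, neither of which passed.

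The glomerular chains did not stand apart by genotype. Col4a3 read 8.62, 8.29, 8.26 and 8.37 against 8.45, 8.49, 8.41 and 8.38 (0.05 ± 0.08), Col4a4 differed by −0.07 ± 0.07 and Col4a5 by −0.08 ± 0.08. WT 1 was the highest array of all 8 for Col4a3 and Col4a4. Col4a6, which joins Col4a5 in some epithelial membranes such as Bowman's capsule, differed by −0.04 ± 0.06, with the sign turned by centring, quantile normalization or cyclic loess. The median over the 6 type IV chains was −0.05.

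Laminins are cross-shaped heterotrimers of an alpha, a beta and a gamma chain. The chains of the adult glomerular laminin, Lama5, Lamb2 and Lamc1, gave 0.03 ± 0.07, −0.01 ± 0.05 and 0.01 ± 0.07, each changing sign under at least 1 other normalization. Lama1, the alpha chain of proximal tubule membranes, read 7.81, 7.61, 7.71 and 7.69 across WT 1 to 4, against 7.57, 7.58, 7.59 and 7.48 across SPAK KO 1 to 4 (−0.15 ± 0.06, adjusted p = 0.193). The SPAK KO values were all lower, although WT 2 lay close to the highest of them. Lama3, an epithelial alpha chain, read 8.18, 8.42, 8.52 and 8.30 against 8.23, 8.18, 8.13 and 8.17 (−0.18 ± 0.07, adjusted p = 0.213), where WT 1 fell among the SPAK KO values. Lama2 and Lama4, chains of muscle and vessel membranes, gave −0.03 ± 0.09 and −0.07 ± 0.07. The remaining chains Lamb1, Lamb3 and Lamc3 gave 0.08 ± 0.06, −0.02 ± 0.06 and 0.06 ± 0.07. Over the 10 laminin chains measured the median was −0.02.

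Nidogens bridge laminin and type IV collagen, and perlecan, encoded by Hspg2, is the heparan sulfate proteoglycan of the membrane. Nid2 read 7.48, 7.35, 7.39 and 7.55 against 7.31, 7.35, 7.36 and 7.33 (−0.11 ± 0.05, adjusted p = 0.322), with WT 2 among the SPAK KO values. Nid1 differed by −0.05 ± 0.06 and Hspg2 by 0.06 ± 0.06. None of the linker genes passed.

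Fibrillar collagens and basement membrane genes did not separate by genotype as classes. The median difference was −0.09 for the 11 fibrillar and −0.03 for the 19 basement membrane genes, a gap of −0.06. Between WT samples, the fibrillar mean minus the basement membrane mean had a spread of 0.07 (SD, n = 3), a measure of class means rather than medians. The mean over fibrillar chains was 7.0, 6.90, 6.84 and 6.89 across WT 1 to 4, against 6.82, 6.85, 6.86 and 6.72 across SPAK KO 1 to 4. The mean over basement membrane genes was 7.63, 7.55, 7.61 and 7.66 against 7.62, 7.59, 7.57 and 7.55. Within an array, fibrillar mean minus basement membrane mean was −0.78 to −0.63 in WT and −0.84 to −0.70 in SPAK KO. The ranges overlapped, and WT 3 and WT 4, at −0.78 and −0.77, were nearer to the SPAK KO arrays than to the other WT arrays. With centred arrays the class medians became −0.03 and 0.03, so the sign of the basement membrane median turned while the gap stayed at −0.06.

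Single arrays weighed on the collagens. WT 1 held the highest of the 8 values for 21 of 44 collagen chains (47.7%, against 22.8% of all genes), and SPAK KO 4 the lowest for 19 of 44 (43.2%, against 16.4%). Without SPAK KO 4, 6 of the 11 fibrillar collagens were below 0 in place of 10, and the class median was −0.07. Without WT 1 the counterparts were 8 and −0.05, so that leaving out this array lowered the size of the fibrillar median by over 1.5 times.

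**Figure D4:**
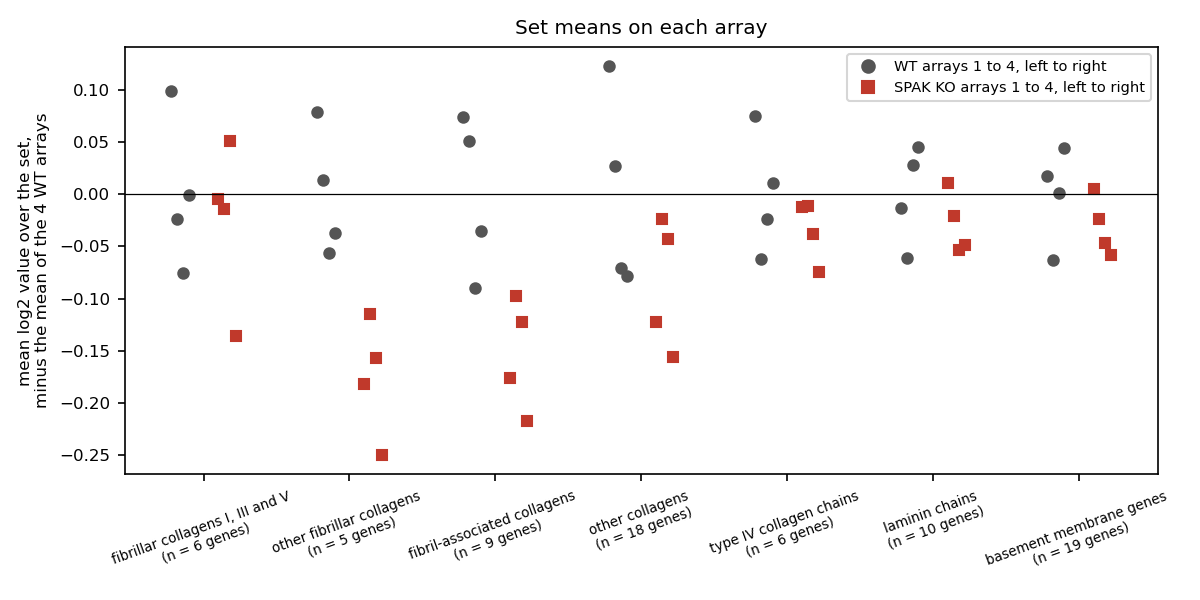
Mean log2 value over each set of genes on each array, minus the mean of the 4 WT arrays. SPAK KO arrays (red squares) lie wholly below WT arrays (grey circles) for the fibril-associated collagens and for fibrillar collagens other than types I, III and V, and overlap them in the other 5 sets.

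Fibril-associated collagens, which carry interrupted helices and link fibrils to their surroundings, were below 0 in 9 of 9 members, with a median of −0.16. Limma called 0 of them (4 had an unadjusted p under 0.05, all lower), and in 4 of 9 the SPAK KO values lay wholly below WT, as they did in 5.71% of all genes. Their mean was 6.75, 6.73, 6.59 and 6.64 across WT 1 to 4, against 6.5, 6.58, 6.55 and 6.46 across SPAK KO 1 to 4. With quantile normalization, cyclic loess or centred arrays, 7 of the 9 were below 0, and the medians were −0.17, −0.16 and −0.10.

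Type IX collagen, which decorates cartilage fibrils, was represented by all its chains. Col9a3 read 7.40, 7.27, 7.06 and 7.20 across WT 1 to 4, against 6.93, 7.01, 6.96 and 6.90 across SPAK KO 1 to 4 (−0.28 ± 0.07, adjusted p = 0.0759). It had the smallest p among the collagens and no overlap, and it was called when the variance followed a trend with the mean (adjusted p = 0.0495) or dim genes were left out (0.0399 and 0.0449). Col9a2 read 7.46, 7.44, 7.04 and 7.05 against 7.05, 7.08, 7.12 and 6.86 (−0.22 ± 0.11). Its WT arrays fell into a high pair (WT 1 and WT 2) and a low pair (WT 3 and WT 4), and the low pair lay among the SPAK KO values. WT 2 and WT 3, counted as 1 sample for their agreement in bright genes, thus differed in this dimmer one. Col14a1, a chain of skin and tendon, read 8.75, 8.63, 8.72 and 8.84 against 8.61, 8.60, 8.55 and 8.55 (−0.16 ± 0.05, adjusted p = 0.152), with no overlap. Col22a1, a chain of tissue junctions, read 6.81, 6.72, 6.57 and 6.56 against 6.51, 6.52, 6.49 and 6.41 (−0.18 ± 0.07), also without overlap.

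The 18 other collagens had 0 calls by limma (2 with an unadjusted p under 0.05, both lower). Col6a6, 1 of the large alpha chains of beaded type VI filaments, read 8.06, 8.0, 7.97 and 7.75 across WT 1 to 4, against 7.54, 7.78, 7.66 and 7.67 across SPAK KO 1 to 4 (−0.28 ± 0.08, adjusted p = 0.0948). WT 4 fell below SPAK KO 2, and without WT 4 the gene was called (−0.35, limma adjusted p = 0.0262). A second probe set of Col6a6 gave 0.07 ± 0.08, so the probe sets disagreed in sign. The 3 neighbouring genes Col6a4, Col6a5 and Col6a6 gave −0.18, −0.15 and −0.28, while the canonical type VI chains Col6a1, Col6a2 and Col6a3 gave −0.02, −0.01 and −0.09. Col6a5, too, had a second probe set of opposite sign (0.13 ± 0.13). These genes arose by duplication, and whether transcripts of near copies bind the same probes was not tested. Col7a1, whose start is printed above and whose product forms the anchoring fibrils below epithelia, read 7.11, 7.12, 7.0 and 6.92 against 6.74, 6.87, 6.89 and 6.76. It was the only gene of this class without overlap (−0.22 ± 0.06, adjusted p = 0.1).

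Col18a1, which encodes the basement membrane collagen that releases endostatin, read 8.17, 7.84, 7.88 and 7.96 against 8.04, 8.12, 8.03 and 8.05 (0.10 ± 0.07). WT 1 exceeded all SPAK KO arrays, while the other WT arrays lay below them. Col26a1, a little-studied chain, gave −0.17 ± 0.08 with overlap. Adding Col15a1 and Col18a1 to the basement membrane genes moved the gap between the fibrillar and basement membrane medians from −0.06 to −0.07.

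Differences across the genome depended on how bright a probe set was. A mean under 6 was found for 10 of the 62 members and for 7937 of all 19938 genes. The median difference over all genes was −0.06 for those with a mean under 6, −0.03 from 6 to 7, 0.02 from 7 to 8 and 0.03 from 8 up. The members had medians of −0.04 (10 genes), −0.12 (19), −0.05 (20) and −0.01 (13) in the same ranges. In the range from 6 to 7, 18 of 19 members (94.7%) were below 0, where 60.1% of all 2778 genes were. Among genes with a mean of at least 7, the 4 fibrillar chains had a median of −0.02 and the 15 basement membrane genes −0.01. Over all probe sets, WT arrays had medians of 6.13 to 6.19 and SPAK KO arrays of 6.09 to 6.12. The part of brightness or array median in the collagen differences was not tested.

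**Figure D5:**
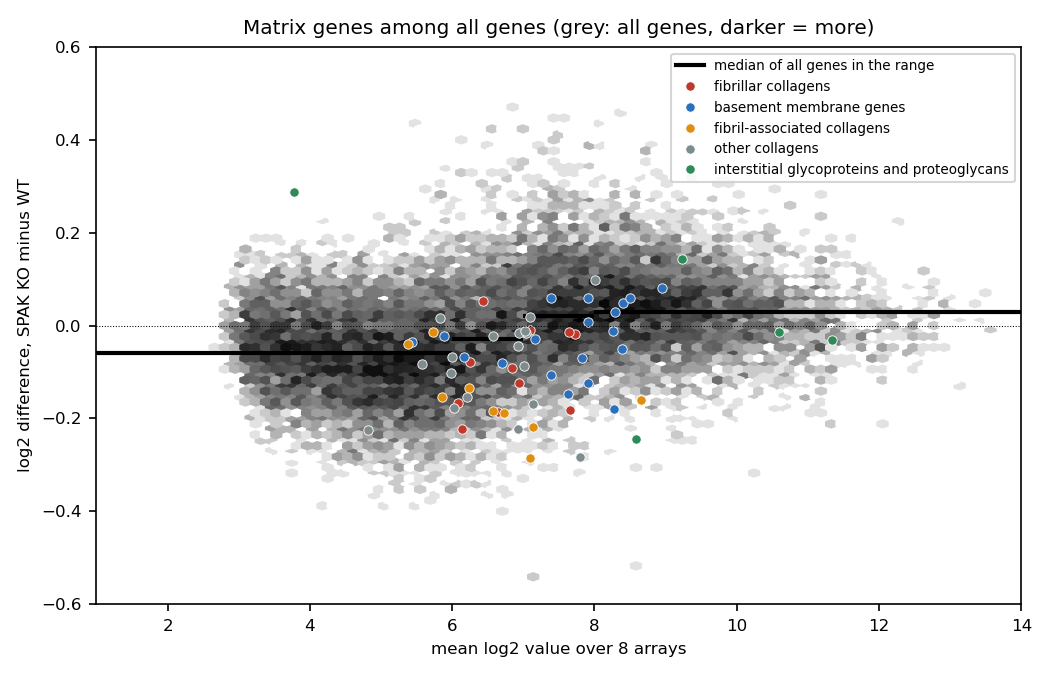
Log2 difference (SPAK KO minus WT) against the mean log2 value over 8 arrays for all genes (grey) and for the 62 matrix genes (colours by class), with black bars at the median of all genes under 6, 6 to 7, 7 to 8 and from 8 up. The bars rise from −0.06 to 0.03, and members between 6 and 7 lie mostly below their bar.

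Other genes of matrix biology were followed in lists set by function. Of 28 measured genes for collagen synthesis and crosslinking, limma called 0 (7 had an unadjusted p under 0.05, 4 of them higher), and the median was −0.003. Plod2, a lysyl hydroxylase that prepares crosslinks, read 8.28, 8.37, 8.32 and 8.25 across WT 1 to 4, against 8.49, 8.46, 8.54 and 8.57 across SPAK KO 1 to 4 (0.21 ± 0.05, adjusted p = 0.0687). Lox, the lysyl oxidase that forms them, was dim and read 4.78, 4.70, 5.0 and 4.72 against 5.31, 5.08, 5.03 and 5.12 (0.34 ± 0.08, adjusted p = 0.0688). Both were higher on every SPAK KO array without passing. In this list, all SPAK KO arrays lay above all WT arrays for 3 genes, and below them for 2. The latter were P4ha3 (−0.11) and Plod1 (−0.08). The shares over all genes were 6.9% above and 5.71% below.

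The lists that follow stand against 1.39% of all genes called higher and 0.682% called lower. Of 24 genes of matrix degradation, 1 was higher and 0 lower, with a median of −0.03. It was Plat, tissue plasminogen activator, at 8.38, 8.25, 8.39 and 8.22 against 8.68, 8.55, 8.61 and 8.57 (0.29 ± 0.06, limma adjusted p = 0.032), a call that survived in 3 of 8 refits without a single array. Of 24 matrix receptors, 1 was lower and 0 higher, with a median of 0.05. Itgb6, the beta chain of an epithelial integrin that binds fibronectin and activates latent TGF-beta, read 10.71, 10.66, 10.65 and 10.60 across WT 1 to 4, against 10.29, 10.31, 10.26 and 10.26 across SPAK KO 1 to 4. It fell by 0.37 on the log2 scale (SE 0.05, limma adjusted p = 0.00447) and kept its call in 8 of 8 such refits.

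Of 19 TGF-beta signalling genes, 1 was higher and 0 lower, with a median of 0.03. Thbs1, thrombospondin, a matrix protein that can activate latent TGF-beta, read 9.0, 8.88, 8.98 and 9.08 against 9.36, 9.31, 9.26 and 9.34 (0.33 ± 0.06, limma adjusted p = 0.0152, called in 6 of 8 such refits). Of 33 other matrix proteins, 1 was higher and 0 lower, with a median of 0.01. Efemp1, fibulin-3, a glycoprotein of elastic matrix, read 7.48, 7.63, 7.89 and 8.0 against 8.39, 8.25, 8.20 and 8.24 (0.52 ± 0.10, limma adjusted p = 0.0344, called in 3 of 8 such refits). Fn1 and the integrin chain Itgb6 were thus lower, and Thbs1, Plat and Efemp1 higher, on every SPAK KO array. With arrays that agree counted once, these calls were lost too.

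In whole cortex, fewer cells of a type and less RNA per cell cannot be told apart, so markers of matrix-making and other cells stand beside these values. The mean over 13 fibroblast and pericyte markers was 7.39 to 7.47 in WT and 7.39 to 7.45 in SPAK KO. Their median was −0.04, with 7 below 0 and 6 above. Among them 1 was called higher, the pericyte gene Rgs5 (0.32 ± 0.07, limma adjusted p = 0.0377). Nt5e lay below WT on every SPAK KO array without being called (−0.33 ± 0.09). Smooth muscle markers (7 genes) had means of 7.22 to 7.28 and 7.27 to 7.35 and a median of 0.03, with 5 above 0 and 2 below. Of these, 0 were called by limma (2 with an unadjusted p under 0.05). Podocyte markers (6 of 9 measured) had means of 7.76 to 7.88 and 7.88 to 7.98, a median of 0.13 and 0 calls (2 with an unadjusted p under 0.05). All 6 were above 0, by 0.06 to 0.17. Endothelium markers (9 genes) had means of 9.35 to 9.39 and 9.31 to 9.38, a median of −0.03 and 0 calls (1 with an unadjusted p under 0.05). Here 7 were below 0 and 2 above. Immune cell markers (9 genes) had means of 6.57 to 6.60 and 6.52 to 6.59, with 1 called lower, the T cell gene Cd3e (−0.31 ± 0.06, limma adjusted p = 0.0443). The median of the immune cell markers was −0.01, with 5 below 0 and 4 above. Medulla and collecting duct markers (7 genes) had means of 6.69 to 6.75 in WT and 6.60 to 6.63 in SPAK KO, without overlap. Among them 4 were below 0 and 3 above, with a median of −0.07. The 2 called lower were the water channels Aqp2 (−0.29 ± 0.06, limma adjusted p = 0.0447) and Aqp4 (−0.35 ± 0.07, limma adjusted p = 0.0439). No marker can be read as absent, since the values carry no detection call. The part of cell composition in the matrix differences was not tested.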

How the data were processed

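Total RNA of renal cortex was measured on 1-colour Affymetrix arrays, 1 per labelled mouse, 4 WT and 4 SPAK KO. The deposited log2 values came from the authors' own run of RMA and Expression Console, tools listed in the submitters' processing notes. RMA corrects background, brings arrays to a common distribution and combines the probes of each set. The genome build and software version are not given in the sources used here, and no detection call comes with the values. The number of arrays limits the precision.

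Of 35556 probe sets, 21789 had exactly 1 gene symbol in the platform annotation, 1621 several and 12146 none. The probe set with the highest mean was used for each gene. limma 3.58.1 in R 4.3.3 (lmFit, eBayes) was fitted on all 19938 genes with genotype as the only term, with Benjamini-Hochberg adjustment over all genes. The fit was also run on simulated independent arrays with changes larger than any member difference. That run does not show how the fit performs on differences as small, or arrays as alike, as those here. The robust alternative used statmod 1.5.0.

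The members and lists were chosen with earlier results of these data known. Genes to be named were all fibrillar, basement membrane and interstitial members; in the other classes called members, the 3 with the highest mean and the 2 with the smallest p; in each further list the called genes or else the 2 with the smallest p; and Stk39. Further genes were picked with their values in view. Alternatives covered normalization, dim genes, probe sets, empirical Bayes options, left-out arrays and class membership. The replicate numbers were not used to pair the arrays in the main fit.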

Additional observations from a re-analysis of the deposited data

Results flagged for a closer look

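In 84 groups of 4 arrays (42 named members in each genotype), 6 held an array far from the other 3 by Dixon's criterion, and chance flags about 1 group in 20. In WT, the Col27a1 value of 7.96 on WT 1 stood above the next value of 7.69. In SPAK KO, Col27a1 on SPAK KO 4 (7.44, next 7.61) and Lama1 on SPAK KO 4 (7.48, next 7.57) stood low, as did Col26a1 on SPAK KO 1 (6.94, next 7.07). Lamb2 on SPAK KO 1 (8.31, next 8.24) and Col3a1 on SPAK KO 3 (7.24, next 7.06) stood high. None of these genes was called.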

How the results depend on the processing

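Fn1 was the 1 member called. The number of members called became 0 with WT 2 and WT 3 averaged, with arrays that agree counted once, with each array centred on its median, with the replicate block, and when adjusted over all probe sets (Fn1 adjusted p = 0.0925). It became 2 with a variance trend, with the dimmest genes left out by rank or with means under 6 left out (Col9a3 added), and 3 with trend and robust options (Col9a3 and Col6a6). Leaving out 1 array gave 0 to 1, and where 1 was called it was Col9a3 (without WT 3) or Col6a6 (without WT 4). Fn1 gave −0.25 with WT 2 and WT 3 averaged (adjusted p = 0.0909), with arrays counted once (1) and with the replicate block (0.108), −0.19 with centred arrays, and −0.27 to −0.21 with 1 array left out (0.0527 to 0.132). The replicate block, which pairs arrays by number, left 129 higher and 45 lower genes of 278 and 136. The correlations of same-numbered arrays' deviations were 0.0701, 0.1, −0.0651 and 0.192. These values cannot decide whether the samples were paired, and the labels give no pairing.

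The gap between the class medians kept its sign in every setting and was −0.11 to −0.03 with 1 array left out. The fibrillar median was −0.13 to −0.05 and the basement membrane median −0.04 to −0.02 with 1 array left out, and the latter was 0.03 with centred arrays. Signs turned for genes with differences near 0. With centred arrays, Nid1 gave 0.01, Col4a6 0.02, Lama2 and Sparc 0.03, Bgn, Col1a1 and Lamb3 0.04, and Col1a2, Col3a1 and Lamb2 0.05. With quantile normalization and cyclic loess, Lama5 gave −0.02 and −0.01, Lamc1 −0.04 and −0.02, and Col4a6 and Lamb3 0.03. Lama5 gave −0.01 with WT 2 and WT 3 averaged or arrays counted once. With 1 array left out, the ranges were −0.04 to 0.03 for Bgn, −0.05 to 0.03 for Col1a1, −0.03 to 0.01 for Col1a2, −0.06 to 0.02 for Col3a1, −0.14 to 0.01 for Col5a3, −0.09 to 0.06 for Lama2, −0.02 to 0.07 for Lama5, −0.04 to 0.01 for Lamb2 and Lamb3, −0.04 to 0.05 for Lamc1, −0.00033 to 0.13 for Lamc3 and −0.05 to 0.0019 for Sparc. The causes were not tested. Dim probe sets, with no stated background, limit what these values show.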

Other observations

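Among the 24 matrix receptors, 5 had all SPAK KO arrays above all WT arrays, where 6.9% of all genes did. These were Itgav, Itgb1, Itgb5 and Itgb8, integrin chains that bind fibronectin, vitronectin or laminin, and Bcam, a laminin receptor. Their differences were 0.10, 0.07, 0.11, 0.09 and 0.19, and none passed. Among the synthesis genes, Pcolce, an enhancer of procollagen processing, lay above WT without overlap (0.11), and Serpinh1, the collagen chaperone HSP47, overlapped (−0.14). These genes were picked with their values in view.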
